A study of Homo sapiens with 2 samples.

Results

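The genes described here are 10 nuclear genes for chaperones and proteases of human mitochondria: the chaperone genes HSPD1, HSPE1, HSPA9, DNAJA3 and TRAP1, and the protease genes LONP1, CLPP, CLPX, YME1L1 and AFG3L2. They were taken by symbol from a table of 58302 genes, each symbol matched 1 row, and all 10 were measured in both libraries. The study used HL60, an established human promyelocytic leukemia line, carrying a retroviral Tet-Off construct for EIF2S3, a gene for 1 subunit of the initiation factor eIF2. In that system doxycycline (DOX) shuts the transgene down, so that both conditions carry the construct. By the labels, the DOX(+) cells received doxycycline, which should switch the transgene off, and the DOX(-) cells were untreated, which should leave it on. There is 1 RNA-seq library per condition, so no spread between cultures can be estimated and no p-value is given, and the dose, the length of treatment and the origin of the stable line (1 clone or a pool) are not given in the sources used here. Doxycycline and the transgene change together between the libraries, and their parts in any difference cannot be told apart.

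Proteins made in the cytosol enter mitochondria unfolded, and chaperones of the matrix fold them there, while proteases of the matrix and inner membrane remove those that misfold. When unfolded protein accumulates in mitochondria, cells can raise transcription of these genes, a program called the mitochondrial unfolded protein response. Doxycycline is a tetracycline, a class of drug that binds bacterial ribosomes and also slows translation on the mitochondrial ribosome, which is why these genes are of interest in a Tet-Off experiment.

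The deposited values are FPKM, fragments scaled by the authors to transcript length and library total. Steps between low values gave 18519439 fragments for DOX(+) and 16577788 for DOX(-). The share of FPKM in transcripts of the mitochondrial genome was 27.7% in DOX(+) and 22.5% in DOX(-). EIF2S3 itself was at 126.2 FPKM in DOX(+), against 132.9 FPKM in DOX(-), a ratio of 0.950. The 95% counting interval was 0.836 to 1.08 with the shortest annotated transcript and 0.917 to 0.983 with the longest. The levels were thus close to equal, whether transgene reads are part of this value is not given in the sources used here, and the conditions are named as the libraries labelled DOX(+) and DOX(-). Of 9 promyelocyte markers, 8 were at 1 FPKM or more, with CTSG, a granule protease gene, at 569.8 FPKM in DOX(+), against 689.2 FPKM in DOX(-), ELANE, the neutrophil elastase gene, at 299.4 FPKM in DOX(+), against 396.4 FPKM in DOX(-), and a summed level of 1315 FPKM in DOX(+) and 1575 FPKM in DOX(-). Of these 8, 5 were lower in DOX(+) and 3 were above 0 on the log2 scale, the myeloid transcription factor gene CEBPA (169.6 FPKM in DOX(+), against 151.4 FPKM in DOX(-)) and, at nearly equal levels, MYB and CD33. MPO, the myeloperoxidase gene and a defining marker of the line, was at only 0.469 FPKM in DOX(+), against 0.274 FPKM in DOX(-). Among 10 markers of other cell types, HBB, CD3E, MS4A1 and EPCAM were listed at 0 in both libraries, and 2 reached 1 FPKM, the endothelial and myeloid gene PECAM1 (11.8 FPKM in DOX(+), against 10.8 FPKM in DOX(-)) and the globin gene HBA1 (3.36 FPKM in DOX(+), against 1.33 FPKM in DOX(-)). In bulk RNA, fewer cells of a type and less RNA per cell cannot be told apart. The part of these markers and of the mitochondrial share in the values below was not tested.

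None of the 10 genes differed 1.5-fold between the libraries. The scale used for this count was log2(FPKM + 1) in DOX(+) minus the same in DOX(-), and a gene counted as tested if it reached 1 FPKM in DOX(+) or DOX(-). By that rule 7.17% of the 11525 tested genes were past 1.5-fold in either direction, 4.06% higher in DOX(+) and 3.11% lower, so 0 of 10 is close to that background. At a smaller step, a log2 ratio of at least 0.32 in size, HSPE1 was higher in DOX(+), and TRAP1 and LONP1 were lower. That is 3 of 10 genes, against 22.9% of all tested genes, of which 12.9% were higher and 9.98% lower. The median log2 ratio of the 10 genes was -0.11, with 8 below 0 and 2 above, while the median over all tested genes was 0.02 with 46.6% below 0. The 2 above 0 were HSPE1 and, by a much smaller margin, CLPX.

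**Figure D1:**
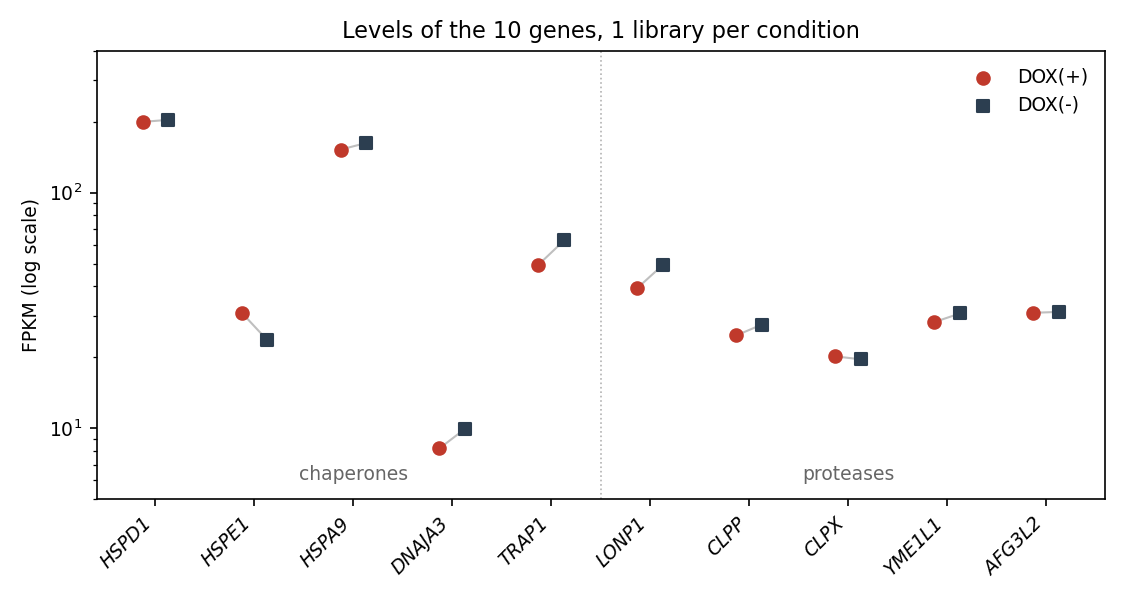
FPKM on a log scale for each of the 10 genes (circles, the DOX(+) library; squares, the DOX(-) library; 1 library each, so no error bars), with chaperone genes left of the dotted line and protease genes right of it. HSPD1 and HSPA9 stand above 150 FPKM in both libraries, DNAJA3 is the lowest, and the 2 points of each gene lie close together.

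Levels spread over a wide range and kept nearly the same order in both libraries. HSPD1 was the highest and DNAJA3 the lowest in each, and HSPD1, HSPA9, TRAP1 and LONP1 took the first 4 places in each. The middle places moved with HSPE1, which was at place 5 of the 10 in DOX(+) and at place 8 in DOX(-). HSPD1 stood at rank 62 of 9283 tested protein-coding genes in DOX(+) and at rank 69 in DOX(-), and DNAJA3 at rank 3414 in DOX(+) and 2823 in DOX(-). Together the 10 genes held 583.8 FPKM in DOX(+), against 620.9 FPKM in DOX(-), or 0.281% of the FPKM outside the mitochondrial genome in DOX(+) and 0.284% in DOX(-).

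HSPD1 and HSPE1 encode the chaperonin of the matrix: HSPD1 forms the folding chamber and HSPE1 its lid. HSPD1 (ENSG00000144381, chromosome 2, 197486581 to 197516737, GRCh38) was at 199.6 FPKM in DOX(+), against 203.6 FPKM in DOX(-). Its ratio was 0.980, and the 95% counting interval, 0.916 to 1.05, included equal levels. Such an interval covers counting error only, not the spread between cultures, and rests on fragments estimated with the gene's shortest annotated transcript, which gives the widest interval. HSPE1 (ENSG00000115541, chromosome 2, 197499994 to 197503457) was at 31.0 FPKM in DOX(+), against 23.6 FPKM in DOX(-). Its ratio of 1.31 (counting interval 1.08 to 1.59) was the highest of the 10 genes, and its log2 ratio of 0.38 was above that of 89.8% of all tested genes. The FPKM of HSPD1 was thus 6.44 times that of HSPE1 in DOX(+) and 8.61 times in DOX(-). The proteins work as partners, and the genes are transcribed away from each other from starts that lie 104 bases apart. These ratios leave out the pseudogenes and the readthrough gene described below. With those added, HSPD1 came to 280.8 FPKM and HSPE1 to 135.9 FPKM in DOX(+). In DOX(-) the sums were 276.9 FPKM and 123.1 FPKM, so that in both libraries they lay closer together than the single genes.

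Near-identical copies share the sequence of HSPE1, which makes its value uncertain. The table lists 27 HSPE1 pseudogenes, of which 5 were at 1 FPKM or more. HSPE1P2 (chromosome 14, 63601509 to 63601814) stood at 77.99 FPKM in DOX(+), against 79.6 FPKM in DOX(-), above the FPKM of HSPE1 itself. Its model has 306 bases, against 478 to 950 for HSPE1 transcripts, and FPKM are scaled to length. In estimated fragments HSPE1P2 had 442 in DOX(+) and 404 in DOX(-). HSPE1 had 274 and 187 with its shortest transcript, and 545 and 372 with its longest, so the order depends on the length taken. To show how little separates these copies, bases 111 to 200 of the HSPE1 coding sequence (transcript HSPE1-201, counted from 1 at the A of the start codon) are printed below with the aligned stretch of the 3 pseudogenes of highest FPKM, from GENCODE release 29 (GRCh38), with capitals where a pseudogene differs from HSPE1.
HSPE1: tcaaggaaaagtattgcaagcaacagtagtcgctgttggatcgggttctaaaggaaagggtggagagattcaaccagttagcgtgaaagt
HSPE1P2: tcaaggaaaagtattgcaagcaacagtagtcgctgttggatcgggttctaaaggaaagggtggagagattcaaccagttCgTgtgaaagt
HSPE1P6: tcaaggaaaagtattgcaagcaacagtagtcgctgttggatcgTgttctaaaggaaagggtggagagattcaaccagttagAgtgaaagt
HSPE1P7: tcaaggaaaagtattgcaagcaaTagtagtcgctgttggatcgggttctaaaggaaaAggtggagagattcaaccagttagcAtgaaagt

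Over the whole coding sequence of 306 bases, HSPE1P2 matched HSPE1 at 296 of 303 aligned bases (97.7%), with an unbroken identical run of 121 bases. HSPE1P6 (chromosome 1, 203903723 to 203904013) matched at 280 of 286 and HSPE1P7 (chromosome 16, 74612596 to 74613221) at 277 of 287. A fragment that falls inside such a run can be placed at either locus, and how the authors placed it was not given in the sources used here. HSPE1P6 was at 9.83 FPKM in DOX(+), against 10.99 FPKM in DOX(-), a difference inside its counting interval (ratio 0.600 to 1.34). HSPE1P7 was at 9.59 FPKM in DOX(+) but listed at 0 in DOX(-), the largest contrast among the copies. The readthrough gene HSPE1-MOB4, which shares 192 exon bases with HSPE1 on the same strand, was lower, at 2.91 FPKM in DOX(+), against 5.22 FPKM in DOX(-) (ratio interval 0.381 to 0.810). MOB4, the downstream gene of that readthrough, was at 6.41 FPKM in DOX(+), against 1.63 FPKM in DOX(-). Its locus (197515571 to 197553699) overlaps that of HSPE1-MOB4 (197500413 to 197550726). How fragments were divided between these gene models was not tested, so their opposite differences cannot be read separately.

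Added together, HSPE1, HSPE1-MOB4 and the HSPE1 pseudogenes came to 135.9 FPKM in DOX(+), against 123.1 FPKM in DOX(-), a log2 ratio of 0.14 against 0.38 for HSPE1 alone. Without HSPE1P7 the sums were 126.3 FPKM in DOX(+), against 123.1 FPKM in DOX(-), a log2 ratio of 0.04. HSPE1 held 22.8% of the summed FPKM in DOX(+) and 19.2% in DOX(-). Because FPKM are scaled to length, short pseudogenes weigh more in these sums and shares than their fragments would. The part that the placing of shared fragments has in the HSPE1 ratio was not tested.

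**Figure D2:**
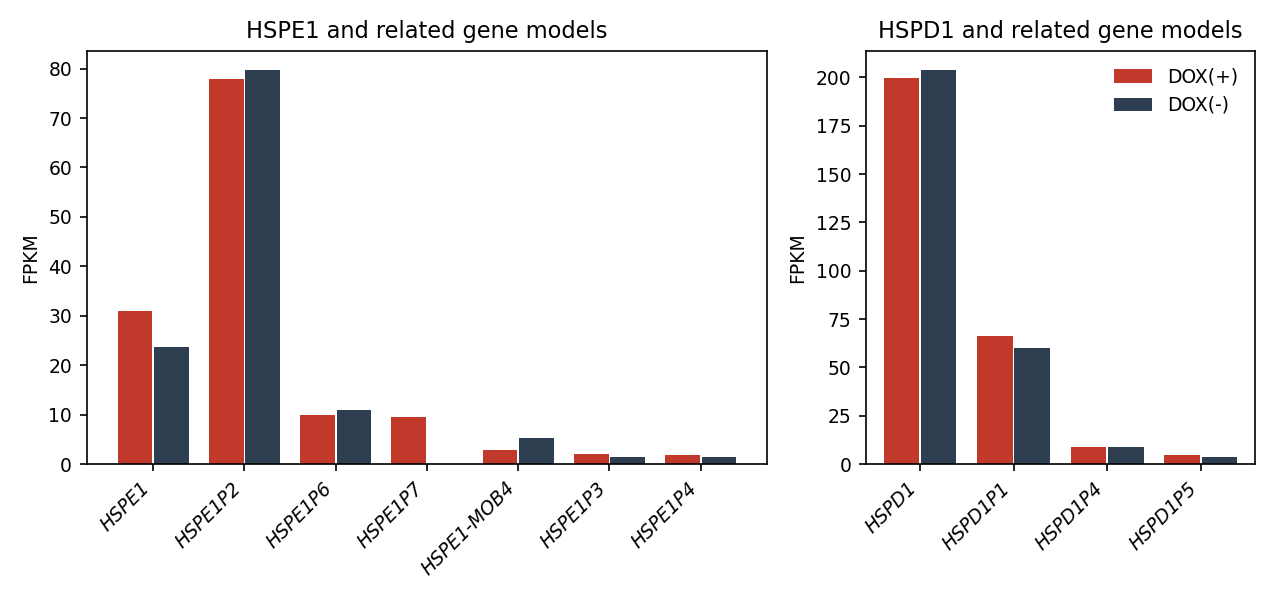
FPKM (bars from 0; DOX(+) left of DOX(-) in each pair; 1 library each) of HSPE1 and HSPD1 beside the pseudogenes and the readthrough gene at 1 FPKM or more in either library. HSPE1P2 exceeds HSPE1 in both libraries and HSPE1P7 has a bar only in DOX(+), whereas HSPD1 stays about 3 times as high as its highest pseudogene.

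HSPD1 has 20 listed pseudogenes, 3 of them at 1 FPKM or more. HSPD1P1 (chromosome 5, 21882585 to 21884310), which matches the HSPD1 coding sequence at 1678 of 1719 aligned bases, was at 66.4 FPKM in DOX(+), against 59.8 FPKM in DOX(-) (ratio interval 1.04 to 1.18). HSPD1P4 was at 9.04 FPKM in DOX(+), against 8.61 FPKM in DOX(-), and HSPD1P5 at 4.71 FPKM in DOX(+), against 3.86 FPKM in DOX(-). HSPD1 held 71.1% of the summed FPKM in DOX(+) and 73.5% in DOX(-), and the sum was 280.8 FPKM in DOX(+), against 276.9 FPKM in DOX(-), a log2 ratio of 0.02 against -0.03 for HSPD1 alone. The sign of the HSPD1 difference turned when pseudogene FPKM were added, and its size is small either way. The placing of shared fragments was not tested here either. HSPD1 and HSPE1 also overlap in 281 exon bases on opposite strands, and whether the libraries kept strand was not given in the sources used here.

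HSPA9 encodes mortalin, the mitochondrial Hsp70, which pulls precursor proteins through the inner membrane and folds them. HSPA9 (ENSG00000113013, chromosome 5, 138554882 to 138575444) was at 152.2 FPKM in DOX(+), against 162.4 FPKM in DOX(-), a ratio of 0.937 (counting interval 0.848 to 1.04, which included equal levels). Its pseudogene HSPA9P1 was at 12.8 FPKM in DOX(+), against 13.02 FPKM in DOX(-), so that HSPA9 held 91.9% of the summed FPKM in DOX(+) and 91.8% in DOX(-) and pseudogenes weigh less here than for HSPE1. A second pseudogene, AC105245.1, was at 0.664 FPKM in DOX(+), against 1.48 FPKM in DOX(-).

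DNAJA3 encodes a J-domain protein that stimulates the ATPase of HSPA9. DNAJA3 (ENSG00000103423, chromosome 16, 4425805 to 4456775) was at 8.21 FPKM in DOX(+), against 9.96 FPKM in DOX(-), a ratio of 0.825. Being the lowest gene it had the widest counting interval, 0.551 to 1.23, which included equal levels. HSPA9 stood at 18.5 times the FPKM of DNAJA3 in DOX(+) and 16.3 times in DOX(-), and at 9.24 times that of GRPEL1, the nucleotide exchange factor of the same cycle, in DOX(+) and 9.997 times in DOX(-). The counting intervals of both co-chaperones, 0.551 to 1.23 for DNAJA3 and 0.782 to 1.32 for GRPEL1, included equal levels and overlapped.

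TRAP1 encodes the mitochondrial Hsp90. TRAP1 (ENSG00000126602, chromosome 16, 3651639 to 3717597) was at 49.4 FPKM in DOX(+), against 62.7 FPKM in DOX(-), and its ratio of 0.788 was the lowest of the 10 genes. The counting interval, 0.684 to 0.907, left out equal levels, and 9.09% of all tested genes had a lower log2 ratio than its -0.34. No pseudogene of TRAP1 is listed in the table.

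**Figure D3:**
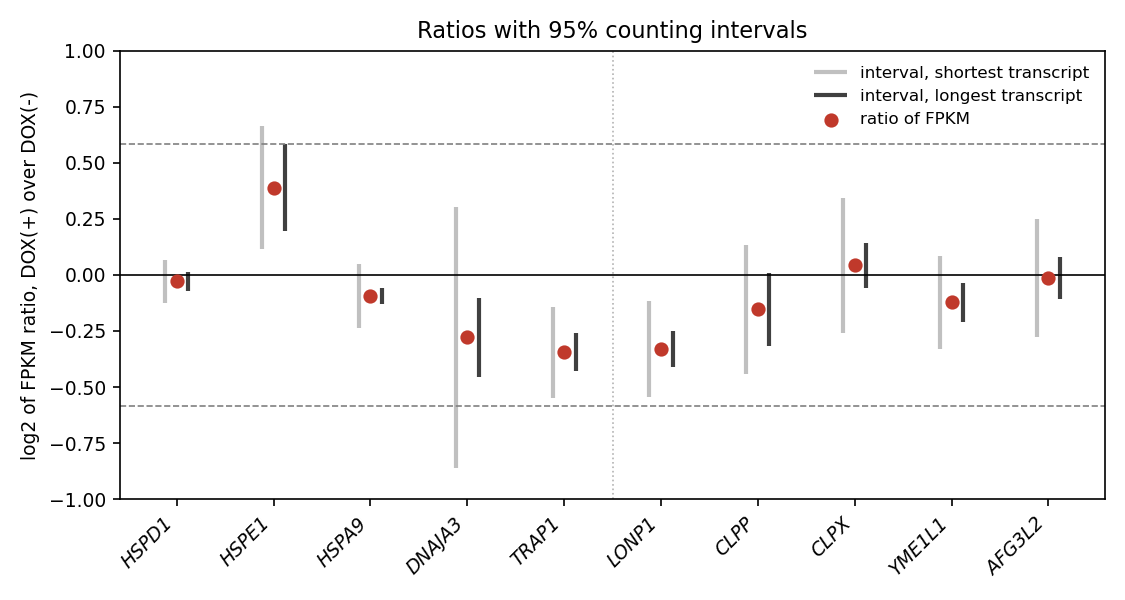
Log2 of the plain FPKM ratio of DOX(+) over DOX(-) for each gene (red points), with 95% counting intervals on fragments estimated from the shortest (grey) and longest (black) annotated transcript; dashed lines mark 1.5-fold. HSPE1 lies above 0 and TRAP1 and LONP1 below it with both intervals clear of 0, and no point reaches a dashed line.

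LONP1 is the main ATP-dependent protease of the matrix, where it degrades oxidized and misfolded proteins. LONP1 (ENSG00000196365, chromosome 19, 5691834 to 5720572) was at 39.3 FPKM in DOX(+), against 49.5 FPKM in DOX(-), a ratio of 0.796 (counting interval 0.686 to 0.922, which left out equal levels) and a log2 ratio of -0.32. Its exons share 43 bases with RPL36, a ribosomal protein gene on the opposite strand that stood at 68.3 FPKM in DOX(+), against 77.7 FPKM in DOX(-).

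CLPX and CLPP form a second matrix protease, in which CLPX unfolds substrates and feeds them into the proteolytic barrel of CLPP. CLPP (ENSG00000125656, chromosome 19, 6361452 to 6368908) was at 24.8 FPKM in DOX(+), against 27.6 FPKM in DOX(-), a ratio of 0.899 (0.736 to 1.098). CLPX (ENSG00000166855, chromosome 15, 65148219 to 65185342) was at 20.2 FPKM in DOX(+), against 19.6 FPKM in DOX(-), a ratio of 1.03 (0.836 to 1.27). Both intervals included equal levels. The FPKM of CLPX was 0.815 times that of CLPP in DOX(+) and 0.711 times in DOX(-).

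YME1L1 and AFG3L2 are ATP-dependent proteases of the inner membrane, with active sites facing the intermembrane space in YME1L1 and the matrix in AFG3L2. YME1L1 (ENSG00000136758, chromosome 10, 27110112 to 27155266) was at 28.2 FPKM in DOX(+), against 30.7 FPKM in DOX(-), a ratio of 0.919 (0.796 to 1.06). AFG3L2 (ENSG00000141385, chromosome 18, 12328944 to 12377314) was at 30.9 FPKM in DOX(+), against 31.2 FPKM in DOX(-), a ratio of 0.991 (0.826 to 1.19) and the smallest log2 difference of the 10. Both counting intervals included equal levels, and the 2 genes stood at nearly equal FPKM, with AFG3L2 at 1.09 times YME1L1 in DOX(+) and 1.02 times in DOX(-). YME1L1 shares 443 exon bases with MASTL and AFG3L2 837 with TUBB6, each on the opposite strand. MASTL was at 12.8 FPKM in DOX(+), against 11.6 FPKM in DOX(-), and TUBB6 at 1.89 FPKM in DOX(+), against 1.52 FPKM in DOX(-).

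With the shortest transcripts, the counting intervals of 3 of the 10 genes left out equal levels (HSPE1, TRAP1 and LONP1). With the longest transcripts, which give the most fragments, HSPA9, DNAJA3 and YME1L1 joined them. The 4 genes with no overlapping gene and no pseudogene at 1 FPKM or more (DNAJA3, TRAP1, CLPP and CLPX) had log2 ratios between -0.34 and 0.04, with a median of -0.20. The 10 genes lie on 7 chromosomes. DNAJA3 and TRAP1 are 708 kb apart on chromosome 16 and CLPP and LONP1 are 641 kb apart on chromosome 19. All 4 of these had lower FPKM in DOX(+), as did 8 of all 10 genes.

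**Figure D4:**
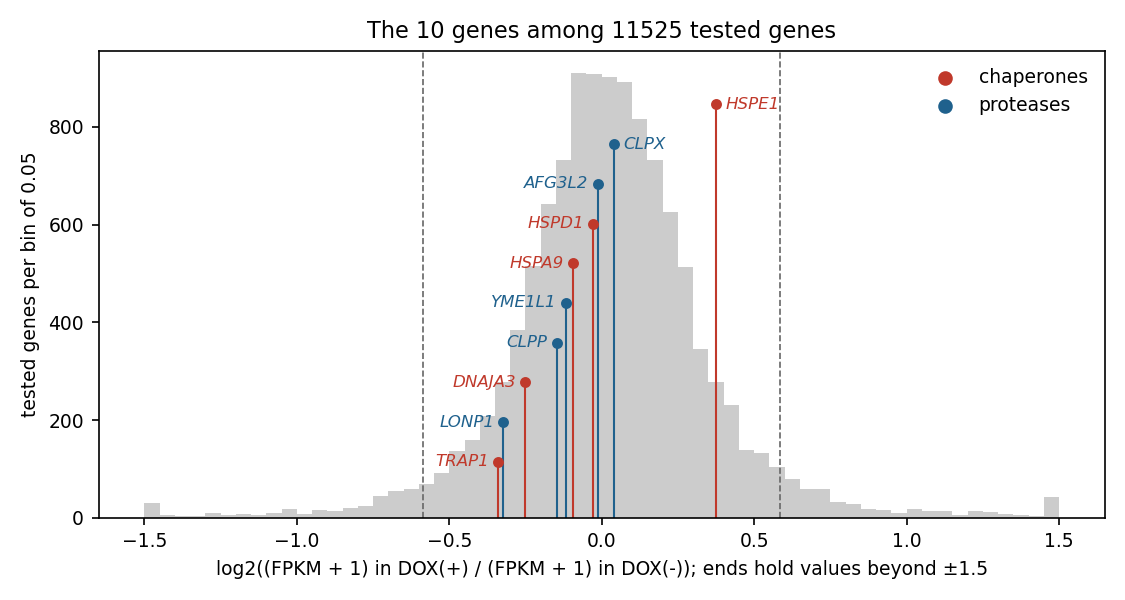
Number of tested genes per bin of log2((FPKM + 1) in DOX(+) / (FPKM + 1) in DOX(-)) (grey), with the 10 genes marked (red, chaperones; blue, proteases; heights of the marks carry no value) and dashed lines at 1.5-fold. All 10 lie between the dashed lines, 8 of them left of 0, with HSPE1 apart on the right at 0.38.

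Promoter sequences from 250 bases before to 50 bases after each start were matched by symbol in RefSeq (GRCh38.p14) for 8 of the 10 genes, in 10 windows, with 2 starts each for HSPD1 and LONP1. Their G and C content was between 63.7% and 76.3%, against a median of 58.7% over 35116 windows. The E-box CACGTG, the site to which MYC binds, was found in windows of 4 genes, HSPD1, HSPE1, HSPA9 and LONP1, and in 7.26% of all windows. Such shares, here and below, are per window and not per gene, and were not matched for G and C content. HSPD1 and HSPE1 share 1 and the same E-box, which lies between their starts. The 30 bases around each are printed because MYC was at 2.06 FPKM in DOX(+), against 29.5 FPKM in DOX(-), with the E-box in capitals and the strand of the named gene.
HSPE1 and HSPD1, chr2:197500345-197500374, + strand: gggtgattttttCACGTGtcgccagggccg
HSPA9, chr5:138575403-138575432, - strand: cgcccctcacccCACGTGgttggaggtttc
LONP1 distal, chr19:5720341-5720370, - strand: ctcacagccttcCACGTGaccggaaaaggc
LONP1 proximal, chr19:5720178-5720207, - strand: cgcgccgggcgtCACGTGcgtttcgcggcg

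The log2 ratios of these 4 genes were -0.03 (HSPD1), 0.38 (HSPE1), -0.09 (HSPA9) and -0.32 (LONP1), and those of the 4 genes whose windows held no E-box were -0.25 (DNAJA3), -0.34 (TRAP1), 0.04 (CLPX) and -0.01 (AFG3L2). The ranges overlap, but no conclusion about MYC is drawn from this. HSPD1 and HSPE1 share the same E-box, and CLPP and YME1L1 had no window. The highest value, that of HSPE1, is uncertain because of its near-identical copies. With its pseudogenes and the readthrough gene added it was 0.14. A match is a run of letters and not a measured binding site, and the part of MYC in these values was not tested.

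Windows were also searched on both strands for motifs of stress factors. The core TGCAAT of the element bound by CHOP with C/EBP factors, through which the mitochondrial unfolded protein response of mammalian cells was described at HSPD1, was found in 8.21% of all windows and among these genes in HSPD1 alone. Heat shock element pairs GAANNTTC and TTCNNGAA overlap in HSPD1, and TTCNNGAA was also found in HSPA9. They were in 6.77% and 7.74% of all windows. In HSPD1, the TGCAAT and heat shock matches lay in the window of the start at 197499840. The window of its other start, at 197500274 and 104 bases from that of HSPE1, held the E-box and none of the other motifs searched. The cAMP response element TGACGTCA, bound by factors of the ATF and CREB family, was found in TRAP1 (1.85% of all windows). The NRF1 motif GCATGCGC, named for a regulator of nuclear genes for mitochondria, was found in DNAJA3 and LONP1 (3.05%). The amino acid response element TGATGNAA, bound by ATF4, was in 3.62% of all windows, and these letters were not found in the 10 windows. The box CCAAT was found in CLPX and DNAJA3 (34.6%). Of these matches, 4 stretches are shown as examples from HSPD1, TRAP1 and LONP1, with the motif in capitals.
HSPD1, CHOP core, chr2:197499945-197499974, - strand: cagggtgtgcagATTGCAgggcccgggctg
HSPD1, heat shock pairs, chr2:197500061-197500090, - strand: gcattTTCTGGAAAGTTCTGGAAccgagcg
TRAP1, cAMP response element, chr16:3717600-3717629, - strand: ggcgcccgccgTGACGTCAccgccccgcgc
LONP1, overlapping NRF1 motifs, chr19:5720634-5720663, - strand: gctgaagccctGCGCATGCGCatcaatgag

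Factors that bind several of these motifs were measured in a list of 12 regulators of the response, all tested. The median log2 ratio of the 12 was -0.11. Of them, 1 was 1.5-fold lower in DOX(+) and 0 higher, against 3.11% lower and 4.06% higher of all tested genes. Without the pseudocount, when 14.0% of all tested genes were past 1.5-fold in either direction, ATF5 and JUN were also past it, both higher. The 1 was DDIT3, which encodes CHOP, at 1.73 FPKM in DOX(+), against 4.63 FPKM in DOX(-), a ratio of 0.373 (counting interval 0.212 to 0.636). ATF5, whose protein moves between mitochondria and the nucleus and which like CHOP is a transcription factor of the response, was higher, at 7.37 FPKM in DOX(+), against 4.88 FPKM in DOX(-) (log2 ratio 0.51, plain ratio 1.51, interval 1.07 to 2.15). JUN, an AP-1 subunit gene, was at 4.70 FPKM in DOX(+), against 2.93 FPKM in DOX(-) (log2 ratio 0.54, plain ratio 1.60, interval 1.33 to 1.94). ATF4 had a log2 ratio of -0.48 and HSF1, the heat shock factor, of -0.12. The genes that respond to mitochondrial stress through ATF4 were mostly lower. Of 11 tested, 3 were 1.5-fold lower in DOX(+), against 3.11% of all tested genes, 0 were higher and the median was -0.43. The 3 included SESN2 and DDIT4, both brakes on mTORC1, with log2 ratios of -1.01 and -0.85. The third was CHAC1, a glutathione-degrading enzyme gene, with -0.69. The 5 chaperone genes had a median of -0.09 and the 5 protease genes of -0.12.

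Other mitochondrial chaperones and their cofactors did not pass the 1.5-fold rule, which uses log2(FPKM + 1). Of 14 tested, 0 were past the rule, against 7.17% of all tested genes. Without the pseudocount PAM16 passed, when 14.0% of all tested genes did. Of the 14, 9 were above 0 and the median log2 ratio was 0.09. PAM16, a subunit of the protein import motor, was at 2.43 FPKM in DOX(+), against 1.40 FPKM in DOX(-). Its plain ratio was 1.74, with an interval of 0.669 to 4.97 that included equal levels. STOML2, an inner membrane scaffold, was at 35.3 FPKM in DOX(+), against 42.7 FPKM in DOX(-), and GRPEL2, a second exchange factor for HSPA9, at 3.97 FPKM in DOX(+), against 3.16 FPKM in DOX(-). The interval of STOML2 (0.690 to 0.991) left out equal levels, and that of GRPEL2 (0.760 to 2.11) included them. Of 11 other mitochondrial proteases and peptidases, 0 were past 1.5-fold and the median was 0.02, or -0.01 under 2 other scalings. ATP23 was at 8.995 FPKM in DOX(+), against 6.67 FPKM in DOX(-), PARL, a rhomboid protease of the inner membrane, at 12.8 FPKM in DOX(+), against 9.80 FPKM in DOX(-), and HTRA2, a serine protease of the intermembrane space, at 3.61 FPKM in DOX(+), against 4.47 FPKM in DOX(-). The intervals of ATP23 (0.955 to 1.92), PARL (0.970 to 1.77) and HTRA2 (0.507 to 1.29) included equal levels. SPG7, which joins AFG3L2 in the matrix-facing protease, was at 2.90 FPKM in DOX(+), against 3.23 FPKM in DOX(-), so that AFG3L2 stood at 10.6 times its FPKM in DOX(+) and 9.65 times in DOX(-).

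Among genes for protein import, substrates of the member proteases, matrix enzymes and outer membrane channels, VDAC2 alone passed the same rule. Of all tested genes, 7.17% passed it. Without the pseudocount, when 14.0% of all tested genes passed, TIMM10 passed too, at a plain ratio of 1.51 (interval 1.24 to 1.85). Of 19 genes of mitochondrial protein import, 0 were past 1.5-fold and the median log2 ratio was 0.05, with TIMM10, a chaperone of the intermembrane space, at 30.1 FPKM in DOX(+), against 19.9 FPKM in DOX(-), TOMM40, the outer membrane pore, at 29.3 FPKM in DOX(+), against 22.0 FPKM in DOX(-), and TIMM21 at 3.71 FPKM in DOX(+), against 2.76 FPKM in DOX(-). Of 10 genes whose proteins the member proteases are known to cut, degrade or affect, 0 were past the rule and the median was 0.15. TFAM, the mitochondrial DNA packaging factor that LONP1 degrades, was at 14.8 FPKM in DOX(+), against 10.6 FPKM in DOX(-) (ratio 1.39, interval 1.09 to 1.77), while ERAL1, a ribosome assembly factor that CLPP removes, was at 5.77 FPKM in DOX(+), against 7.71 FPKM in DOX(-) and COX4I1 at 9.90 FPKM in DOX(+), against 7.88 FPKM in DOX(-). The intervals of ERAL1 (0.526 to 1.06) and COX4I1 (0.889 to 1.79) included equal levels. Of 10 matrix enzymes and outer membrane channels, VDAC2 was 1.5-fold lower (11.1 FPKM in DOX(+), against 18.5 FPKM in DOX(-)), and the median was -0.12. MDH2, of the citric acid cycle, was at 107.8 FPKM in DOX(+), against 131.5 FPKM in DOX(-), and DLD, a subunit shared by matrix dehydrogenases, at 18.6 FPKM in DOX(+), against 14.3 FPKM in DOX(-).

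Relatives of the member chaperones outside mitochondria had a median log2 ratio of 0.07 over 20 genes. Of these, 0 were past 1.5-fold, against 7.17% of all tested genes. DNAJB1, a cytosolic Hsp40, was at 18.8 FPKM in DOX(+), against 13.3 FPKM in DOX(-), HSPH1, a cytosolic exchange factor, at 25.6 FPKM in DOX(+), against 18.6 FPKM in DOX(-), and HSPA8, the constitutive cytosolic Hsp70, at 325.0 FPKM in DOX(+), against 258.4 FPKM in DOX(-). Within the Hsp70 family the log2 ratio was 0.33 for HSPA8, 0.28 for HSPA1A, 0.27 for HSPA1B, 0.06 for HSPA4, -0.23 for HSPA5 of the endoplasmic reticulum and -0.09 for HSPA9. Within the Hsp90 family it was 0.25 for HSP90AA1, -0.17 for HSP90AB1, 0.17 for HSP90B1 of the endoplasmic reticulum and -0.34 for TRAP1. HSP90AB1 had the highest level of these 4, at 1530.0 FPKM in DOX(+), against 1716 FPKM in DOX(-). Against this, all 13 messenger RNAs encoded in mitochondria were higher in DOX(+), with a median log2 ratio of 0.31. All 13 lie on the mitochondrial genome, whose share of FPKM was 27.7% in DOX(+) and 22.5% in DOX(-). They are thus not 13 independent observations. Of the 13, 3 were 1.5-fold higher, against 4.06% of all tested genes. These were MT-ND5, MT-ND6 and MT-ATP8, with log2 ratios of 0.77, 0.67 and 0.65. Whether the 10 nuclear genes and the mitochondrial transcripts are linked was not tested.

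**Figure D5:**
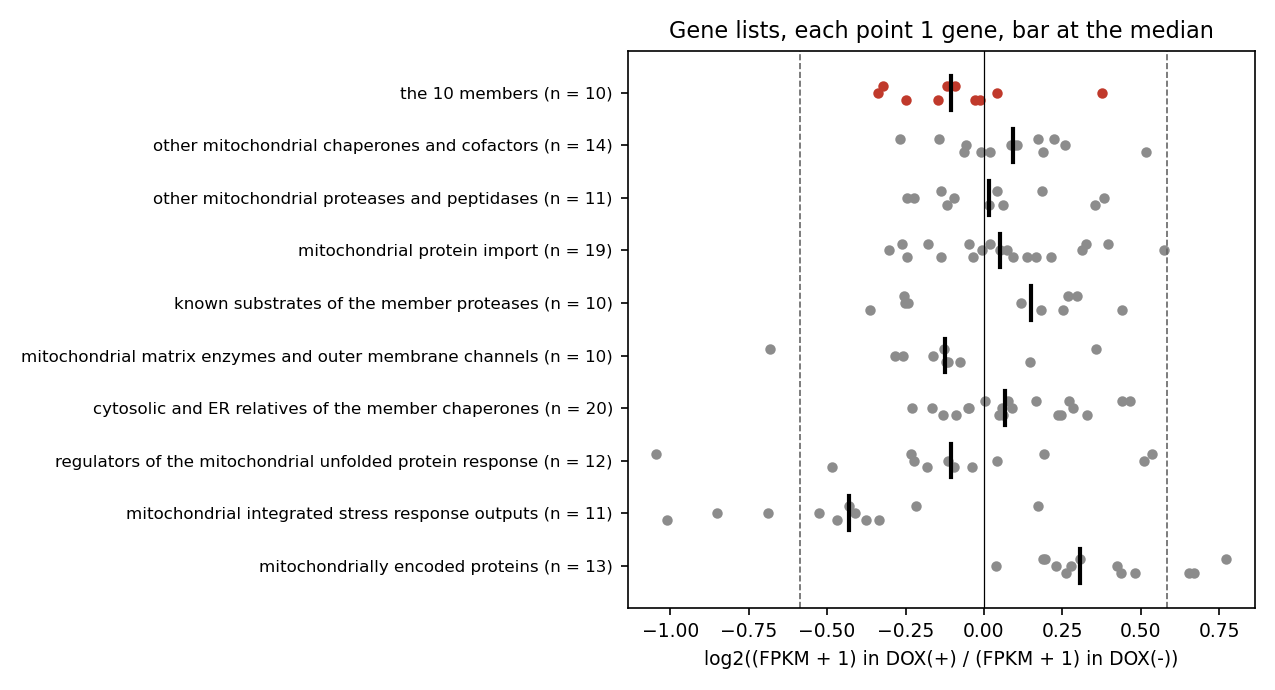
Log2((FPKM + 1) in DOX(+) / (FPKM + 1) in DOX(-)) of each tested gene (points) in the 10 members (red) and 9 other lists (grey), with the median as a black bar and dashed lines at 1.5-fold; the vertical scatter carries no value. The median of the 10 members is -0.11, the genes that respond through ATF4 lie lowest at -0.43 and the mitochondrially encoded genes highest at 0.31.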

How the data were processed

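RNA-seq of 2 HL60-EIF2S3 libraries, 1 per condition, was used. The authors deposited FPKM values per gene, per the file headers. Tools listed in the submitters' processing notes, without roles, are HISAT2 2.1.0, StringTie 1.3.4b, CASAVA 1.8 and edgeR. Coordinates are of GRCh38, a build named there. No significance test was made, since each condition has 1 library, and no count model was fitted to FPKM. Log2 ratios used a pseudocount of 1 FPKM, which pulls low genes towards 0, and the 11525 genes that reached 1 FPKM in at least 1 library are called tested. Other ratios are of plain FPKM.

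Fragment totals were recovered from genes with 1 annotated transcript (GENCODE release 29), where FPKM values are multiples of 1 fragment. Of values up to 100 fragments, 99.6% were whole within 0.02 in each library. On 1 kb, a floor of 3 fragments is 0.162 FPKM for DOX(+), against 0.181 FPKM for DOX(-). Counting intervals of ratios are exact conditional (Clopper-Pearson) 95% intervals and cover counting error only, since fragments are not independent molecules. Sequences were aligned locally with Biopython 1.88 (match 1, mismatch -1, gap opening -3, extension -1). Other steps used Python 3.11.15 with numpy 2.4.6, pandas 2.3.3 and scipy 1.17.1, and were tested on simulated data.

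The members and gene lists were chosen with earlier results of these data known. Named genes were the members, EIF2S3, list genes past 1.5-fold (or the 3 with the largest difference at 2 FPKM or more), and same-strand overlapping genes and pseudogenes of a member above 1 FPKM, up to 3 each. Other names (MYC, MOB4, RPL36, MASTL, TUBB6, MPO, CTSG, GRPEL1, SPG7, ATF4, HSF1, HSPA1A, HSPA1B, HSPA4, HSPA5, the zero-level markers, HSP90AA1, HSP90AB1, HSP90B1, CEBPA, MYB, CD33) were added after their values were seen. Alternatives covered the pseudocount, the fold, the filter, the scaling, the transcript length and the family sums.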

Additional observations from a re-analysis of the deposited data

How the results depend on the processing

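No alternative pseudocount (0.1 or none) and no scaling (median-of-ratios, trimmed-mean, or equal totals outside the mitochondrial genome) put any of the 10 genes past 1.5-fold. A 2-fold rule gave 0 as well, and a rule of 0.32 on the log2 scale gave 1 higher and 2 lower. The median log2 ratio of the 10 genes ran from -0.13 (trimmed-mean scaling) to -0.04 (equal totals outside the mitochondrial genome), and was -0.20 in the 4 genes with no overlapping gene or pseudogene at 1 FPKM or more. Over all tested genes the median was -0.003 under trimmed-mean scaling and 0.08 under equal totals outside the mitochondrial genome. The scaling thus moved all genes together, and the median of the 10 stayed below that of all tested genes. Equal totals outside the mitochondrial genome turned the sign of HSPD1 (to 0.04) and AFG3L2 (to 0.06), and adding pseudogenes turned that of HSPD1 (to 0.02), each within the gene's counting interval with the shortest transcript. Both HSPD1 values lay above its interval with the longest transcript, a ratio of 0.951 to 1.01. The median of the other mitochondrial proteases turned to -0.01 under median-of-ratios and trimmed-mean scaling. The share of all tested genes past 1.5-fold was 13.1% with a pseudocount of 0.1 and 14.0% without one, and members of the other lists past 1.5-fold higher numbered 8 under both, against 4 (PAM16, ATF5, JUN and TIMM10 were gained). Equal totals outside the mitochondrial genome gave 602 genes higher and 298 lower among all tested genes, against 468 and 358. A filter at 5 FPKM left 3 lower in those lists, against 5, as it tested fewer genes. Counting intervals left out equal levels for 6 of the 10 genes with the longest transcripts, against 3. The family sums and the 4-gene median were chosen after seeing the data. No paired analysis was possible because each condition has 1 library, and for the same reason no replicate could be left out. DNAJA3 had the widest counting interval of the 10 with the shortest transcripts, and HSPE1 with the longest. The placing of shared fragments in HSPE1 and HSPD1 was not tested.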
